A study of Rattus norvegicus with 9 samples.

Results

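Histamine signals in the brain through the receptor genes Hrh1, Hrh2 and Hrh3, is made by the enzyme gene Hdc, and is removed by Hnmt, Maob and the transporter gene Slc22a3. These 7 genes were followed in the cerebral cortex of rat pups whose families ate 4-methylimidazole (4-MeI), a small imidazole that forms when foods brown. Histamine also carries an imidazole ring, which is why the genes were chosen. All probe sets annotated to exactly 1 of these gene symbols were taken, which gave 11 of the 31099 probe sets on the array for 7 of 14217 named genes, and no probe set shared with another gene named a member.

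The Hsd:Sprague Dawley SD rats received 0, 750 or 2500 ppm of 4-MeI in the diet, starting in the F0 parents before mating and continuing over successive pregnancies and generations. The control, 750 ppm and 2500 ppm groups were each represented by 3 F2b pups of postnatal day 4, with 1 pup per litter and 1 Affymetrix rat genome expression array per pup. The series title names maternal seizures, but the labels assign none to a given array, and neither the sex of the pups nor an array batch is in them. Values are log2 robust multi-array average (RMA) intensities, on which a difference of 1 is a doubling, and the number of arrays limits the precision.

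Histamine is formed by removing the carboxyl group of histidine. In the brain its sources are neurons of the tuberomammillary nucleus in the hypothalamus, whose axons reach the cortex, and mast cells, many of them along the meninges and blood vessels. The H1 receptor couples to Gq proteins and phospholipase C, the H2 receptor to Gs proteins and adenylyl cyclase, and the H3 receptor to Gi and Go proteins. H3 receptors sit largely on nerve endings, where they restrain the release of histamine and other transmitters. In the brain, histamine is inactivated mainly by methylation through histamine N-methyltransferase (Hnmt), and monoamine oxidase B (Maob) then oxidises the methylated product. Organic cation transporter 3 (Slc22a3) moves histamine and other monoamines across membranes with low affinity and high capacity.

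The tissue carried the marker genes of cortical neurons. Of 10 such genes with a probe set, 9 had a mean above the filter on dim probe sets described below, with Neurod6 at 13.02 and Bcl11b at 12.71 on the log2 scale, while the probe set of Tbr1 lay below it at 5.96. Marker genes of striatal neurons were bright too, with 15 of 16 above the filter, among them Pde10a at 10.98 and Penk at 9.77. The arrays were of closely similar intensity, with medians between 7.67 and 7.71. Control replicate 3 and 750 ppm replicate 3 stood apart from their groups on the first principal component, with scores of -25.2 and 14.98, against -8.64 and -9.47 in the other controls and -5.97 and -11.3 in the other 750 ppm arrays. Results that rest on them are given with and without them.

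The 250 bases upstream of 1 annotated start per gene are shown for Slc22a3, Hdc and Hrh3, the genes for which all arrays of 1 dose group lay apart from those of another. RefSeq sequences (GRCr8) matched 6 of the 7 genes, and Hrh2 was not among them. Capitals mark the letters GGGCGG (the GC box bound by Sp1 family factors) and TGACG (the CRE half-site), searched on both strands together with TATAAA. The 3 promoters lie at chr1:50782968-50783217 on the plus strand (Slc22a3), chr3:134318705-134318954 on the minus strand (Hdc) and chr3:187574260-187574509 on the minus strand (Hrh3), each written 5′ to 3′ in the direction of the gene.
Slc22a3: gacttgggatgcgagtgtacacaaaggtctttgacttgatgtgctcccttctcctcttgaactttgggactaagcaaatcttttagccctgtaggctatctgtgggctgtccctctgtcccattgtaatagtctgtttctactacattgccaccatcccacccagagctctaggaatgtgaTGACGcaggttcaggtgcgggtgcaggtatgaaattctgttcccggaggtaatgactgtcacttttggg
Hdc: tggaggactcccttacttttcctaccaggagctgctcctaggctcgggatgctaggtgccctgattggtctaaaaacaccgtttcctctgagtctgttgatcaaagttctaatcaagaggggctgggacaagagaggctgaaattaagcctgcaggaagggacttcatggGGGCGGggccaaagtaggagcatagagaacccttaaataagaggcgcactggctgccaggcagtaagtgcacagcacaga
Hrh3: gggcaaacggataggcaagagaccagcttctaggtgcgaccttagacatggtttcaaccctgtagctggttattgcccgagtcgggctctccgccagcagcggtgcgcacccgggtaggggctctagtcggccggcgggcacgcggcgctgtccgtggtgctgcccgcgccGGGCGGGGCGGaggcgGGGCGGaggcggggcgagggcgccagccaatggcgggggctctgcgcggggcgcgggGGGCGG

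The Hrh3 promoter held 4 GC boxes, of which 2 overlap by 1 base, in a window with 73.6% G and C. This window lies inside the span of the gene, from 187569174 to 187575263 on the minus strand, so it precedes an internal start. The windows of Slc22a3 and Hdc abut their genes. The Hdc promoter held 1 GC box in a window with 52.4% G and C. The Slc22a3 promoter held no GC box and 1 CRE half-site, with 48.8% G and C. Of 33469 rat promoter windows of this length, 30.5% held a GC box, 18.2% a CRE half-site and 12.9% the letters TATAAA, which occurred in none of the 6 matched windows. These matches describe letters only, and no binding was measured.

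Before testing, the dimmest 30% of probe sets, whose average log2 value was under 6.35, were left out, and 6 of the 11 histamine probe sets passed. They measured Hrh1 (1 of 3 probe sets), Hrh3 (both), Hnmt (1 of 2), Maob and Slc22a3. The probe sets of Hdc and Hrh2 and the remaining ones of Hrh1 and Hnmt lay below it, and their differences come from the same model fitted without the filter. RMA values carry no detection call, so a dim probe set does not show that a gene was silent. Each difference was tested with limma, with p-values adjusted by Benjamini-Hochberg over all probe sets tested.

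**Figure D1:**
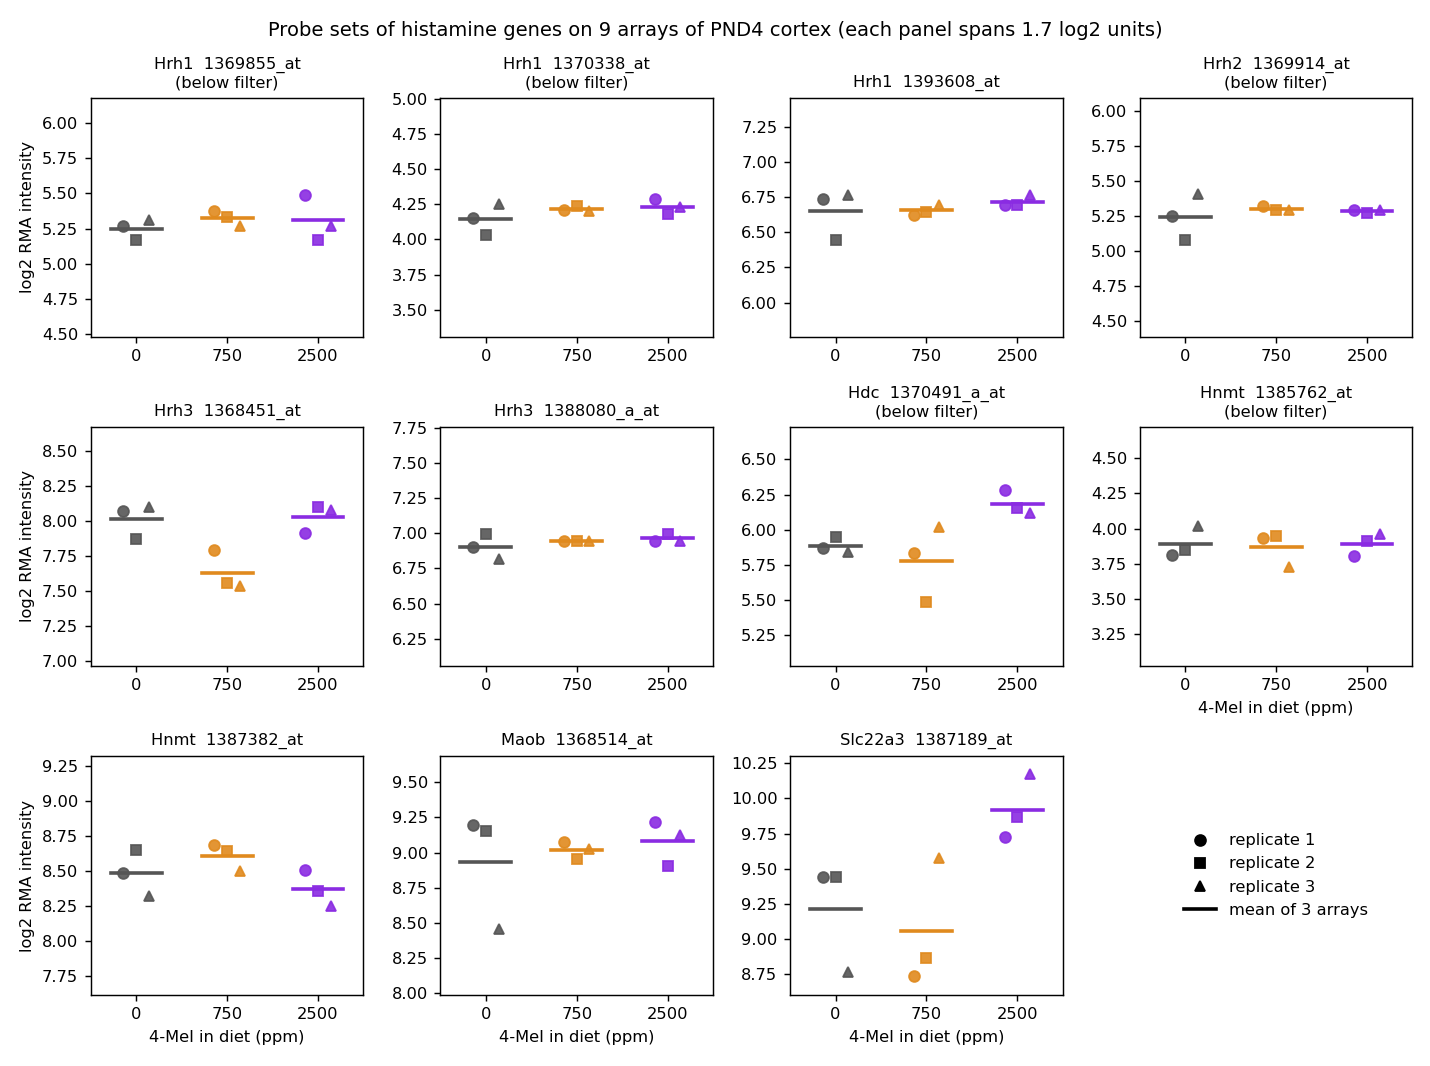
Log2 RMA intensity (vertical axes, of equal span) of the 11 probe sets against the 4-MeI concentration in the diet in ppm, with 1 point per array, marker shapes for replicate numbers and bars for means of 3 arrays. Slc22a3 stands at 9.72 to 10.17 on the 2500 ppm arrays, above the control and the 750 ppm arrays, and Hrh3 on 1368451_at is lowest at 750 ppm.

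Slc22a3 varied most among the 11 probe sets, with a range of 1.44 log2 units over the 9 arrays. Its gene lies on chromosome 1 of GRCr8 from 50783218 to 50872358. On probe set 1387189_at the values were 9.44, 9.44 and 8.77 in controls, 8.73, 8.87 and 9.58 at 750 ppm, and 9.72, 9.87 and 10.17 at 2500 ppm. All 2500 ppm arrays were higher than every other array, whereas control and 750 ppm arrays overlapped. Control replicate 3 was the lowest of its group and 750 ppm replicate 3 the highest of its own.

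Mean Slc22a3 intensity was 9.92 (SD 0.23) at 2500 ppm and 9.21 (SD 0.39) in controls. The difference was 0.71 on the log2 scale, or 1.63-fold (SE 0.25, unadjusted 95% interval 0.15 to 1.26, n = 3 each), and did not pass in limma (adjusted p = 0.210). At 2500 ppm against 750 ppm, whose mean was 9.06 (SD 0.46), the difference was 0.86, or 1.82-fold (SE 0.25, interval 0.30 to 1.42, limma adjusted p = 0.216). At 750 ppm against control the difference was -0.15 (interval -0.71 to 0.40, limma adjusted p = 0.845). The order of the means was therefore 750 ppm, control, 2500 ppm, and no neighbouring means differed past the threshold.

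The arrays that stood apart moved these values. Without 750 ppm replicate 3, which leaves 2 arrays at that dose, Slc22a3 was 1.12 higher at 2500 ppm than at 750 ppm and passed (limma adjusted p = 0.0265). Without control replicate 3, the difference between 2500 ppm and control was 0.48 (limma adjusted p = 0.467). With both arrays left out, the difference from 750 ppm was 1.12 and passed (limma adjusted p = 0.00461), and that from control was 0.48 (limma adjusted p = 0.110). With array weights, which lower the influence of arrays that deviate from their own group, the difference from 750 ppm was 1.03 (limma adjusted p = 0.0196). These weights were estimated from the same values and use no separate measure of array quality.

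Marker genes of neighbouring tissues also differed between these arrays. The mean of 7 choroid plexus genes, as a difference from their 9-array average on the log2 scale, was 1.48, 1.26 and 0.29 on the 2500 ppm arrays, against -0.57, -0.74 and -0.59 in controls. Of these 7 genes, 6 were higher at 2500 ppm than in controls and 1 was lower, with a median difference of 0.47. Ttr, Sostdc1 and Folr1 moved most, by 5.67, 3.04 and 1.83, while Kcnj13 was at -0.014. Sostdc1 and Folr1 averaged 6.07 and 6.17 in controls, under the filter value of 6.35. Within the 2500 ppm group, Slc22a3 and the choroid plexus mean had opposite orders. They ran from 9.72 and 1.48 in replicate 1 to 10.17 and 0.29 in replicate 3. The mean of 15 striatal genes was -1.05, -0.081 and -0.58 at 2500 ppm, against 0.74, 0.32 and 0.50 in controls, and in 750 ppm replicate 3 it was -0.98, against 0.61 and 0.53 in the other 750 ppm arrays. The mean of 16 meningeal genes was 0.028, 0.28 and 0.39 at 2500 ppm, against -0.18, -0.66 and -1.25 in controls. The filter kept 7 of 12 choroid plexus genes, 15 of 16 striatal genes and 16 of 17 meningeal genes with a probe set. Over the 9 arrays, which share dose groups, Slc22a3 had a correlation of 0.57 with the choroid plexus mean, given as a description. With the striatal and meningeal means it was -0.69 and 0.26. The part of tissue content in the Slc22a3 difference was not tested, and in bulk tissue fewer cells of a type and less RNA per cell cannot be told apart.

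**Figure D2:**
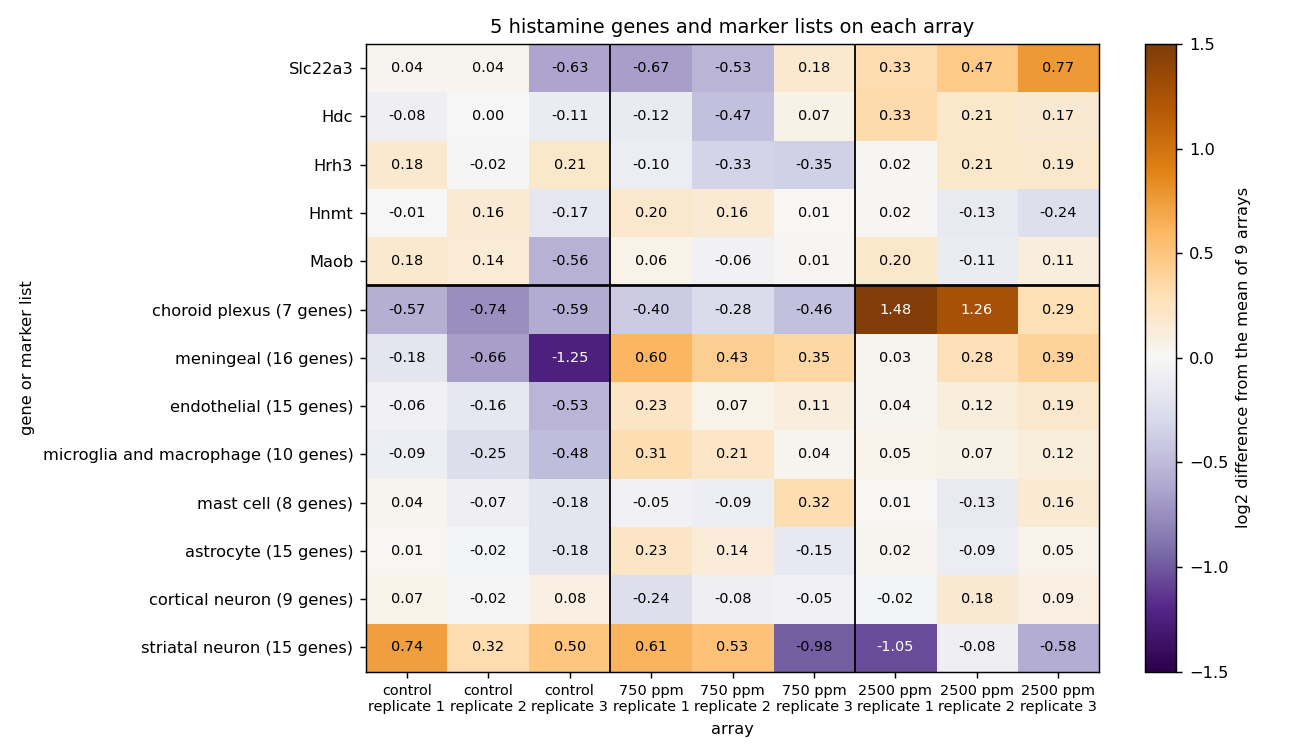
Log2 difference of each array (columns) from the mean of the 9 arrays, for the brightest probe set of 5 histamine genes (upper rows) and for the mean of marker lists of cell types (lower rows), with the number in each cell. The choroid plexus list is above 0 on the 2500 ppm arrays alone, the striatal list is below 0 on those arrays and in 750 ppm replicate 3, and control replicate 3 has the lowest meningeal value, -1.25.

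Among the receptors, Hrh3 had both its probe sets above the filter, and they did not behave alike. Hrh3 lies on chromosome 3 of GRCr8 from 187569174 to 187575263, and RefSeq lists 16 transcripts for it. On 1368451_at the values were 8.07, 7.87 and 8.10 in controls, 7.79, 7.56 and 7.54 at 750 ppm, and 7.92, 8.10 and 8.08 at 2500 ppm. All 750 ppm arrays were lower than every control and every 2500 ppm array, while the last 2 groups overlapped.

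Mean Hrh3 intensity on this probe set was 7.63 (SD 0.14) at 750 ppm and 8.01 (SD 0.13) in controls. The difference was -0.38 (SE 0.094, interval -0.60 to -0.17, n = 3 each), and it did not pass in limma (adjusted p = 0.221). At 2500 ppm the mean was 8.03 (SD 0.10), which was 0.40 higher than at 750 ppm (SE 0.094, interval 0.19 to 0.61, limma adjusted p = 0.137). The 2500 ppm mean lay 0.017 from the control mean (interval -0.20 to 0.23, limma adjusted p = 0.947). With the same array weights, Hrh3 passed in both comparisons with 750 ppm. The difference was -0.41 at 750 ppm against control (limma adjusted p = 0.0394) and 0.41 for 2500 ppm against 750 ppm (limma adjusted p = 0.0419). Leaving out any 1 array kept the difference from control between -0.47 and -0.34, with no call. The mean of 9 cortical neuron genes was -0.24, -0.076 and -0.053 on the 750 ppm arrays, against 0.069, -0.020 and 0.083 in controls. Marker lists of other tissues separated these groups further. The meningeal mean was 0.60, 0.43 and 0.35 on the 750 ppm arrays, against -0.18, -0.66 and -1.25 in controls, with 16 of 16 genes higher and a median difference of 1.24. The endothelial mean was 0.23, 0.069 and 0.11 at 750 ppm, against -0.055, -0.16 and -0.53 in controls, with 15 of 15 genes higher and a median difference of 0.42. At 2500 ppm, where Hrh3 lay 0.017 from control, 16 of 16 meningeal and 15 of 15 endothelial genes were also higher than in controls. Their median differences were 0.90 and 0.36. Over the 9 arrays, which share dose groups, Hrh3 on this probe set had a correlation of 0.69 with the cortical neuron mean, given as a description. With the meningeal and endothelial means it was -0.44 and -0.33. The part of these lists in the Hrh3 difference was not tested.

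The other Hrh3 probe set, 1388080_a_at, showed almost no variation. Its values were 6.904, 6.996 and 6.819 in controls, 6.949 on each of the 750 ppm arrays, and 6.949, 6.995 and 6.949 at 2500 ppm. The deposited value was identical on 5 arrays, and the range of the controls held every other array. The difference at 750 ppm was 0.043 (interval -0.091 to 0.18, limma adjusted p = 0.820), opposite in sign to that of 1368451_at. Across the 9 arrays the correlation of the 2 probe sets was -0.28, given as a description of values that share arrays and groups. Separation of the 750 ppm arrays was therefore seen on 1 of the 2 Hrh3 probe sets.

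Hrh1 lies on chromosome 4 from 149120511 to 149204267. On its brightest probe set, 1393608_at, the values were 6.74, 6.45 and 6.76 in controls, 6.63, 6.65 and 6.70 at 750 ppm, and 6.70, 6.70 and 6.77 at 2500 ppm. The groups overlapped, and control replicate 2 was the lowest array. The difference was 0.0061 at 750 ppm against control (interval -0.19 to 0.20) and 0.070 at 2500 ppm against control (interval -0.12 to 0.26), with limma adjusted p of 0.987 and 0.719. The dim Hrh1 probe sets 1369855_at and 1370338_at averaged 5.30 and 4.20 over all arrays, and their differences lay between -0.014 and 0.089.

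Hrh2, on chromosome 17 from 10371083 to 10412979, had 1 probe set, 1369914_at. Its values were 5.25, 5.08 and 5.41 in controls, 5.32, 5.30 and 5.30 at 750 ppm, and 5.30, 5.27 and 5.30 at 2500 ppm. The control arrays spanned all the others, and 4 arrays had an identical deposited value. The difference was 0.060 at 750 ppm (interval -0.12 to 0.24) and 0.044 at 2500 ppm (interval -0.13 to 0.22) against control, with limma adjusted p of 0.854 and 0.832 without the filter.

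Hdc encodes histidine decarboxylase, the enzyme that makes histamine, and lies on chromosome 3 from 134300628 to 134318704. Its probe set 1370491_a_at was dim, with a mean of 5.95. The values were 5.87, 5.95 and 5.84 in controls, 5.83, 5.48 and 6.02 at 750 ppm, and 6.28, 6.16 and 6.12 at 2500 ppm. All 2500 ppm arrays were higher than every other array, and the 750 ppm arrays spread to both sides of the controls.

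Mean Hdc intensity was 6.18 (SD 0.085) at 2500 ppm and 5.89 (SD 0.053) in controls. In the fit without the filter, the difference was 0.30, or 1.23-fold (SE 0.12, interval 0.032 to 0.57, n = 3 each), and it did not pass (limma adjusted p = 0.293). Against 750 ppm, with a mean of 5.78 (SD 0.27), it was 0.41 (interval 0.14 to 0.67, limma adjusted p = 0.264). This value passed without 750 ppm replicate 3, at 0.53 (limma adjusted p = 0.0387), and with both outlying arrays left out (limma adjusted p = 0.0435).

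Markers of mast cells and of hypothalamic neurons, which include the known sources of Hdc, gave the following values. Of 11 mast cell genes with a probe set, 8 passed the filter, among them the carboxypeptidase gene Cpa3 at 7.34 and the tryptase gene Tpsb2 at 7.79, while the chymase gene Cma1 and the IgE receptor genes Ms4a2 and Fcer1a lay below it. The mean of these 8 genes was 0.012, -0.13 and 0.16 at 2500 ppm, against 0.040, -0.073 and -0.18 in controls, so the groups overlapped. It was highest in 750 ppm replicate 3, at 0.32, which also had the highest Hdc value of its group. The brightest gene of the list, Srgn, which encodes the granule proteoglycan serglycin and is made by other blood-derived cells too, did separate from controls. It had 10.76, 10.79 and 11.02 at 2500 ppm and 10.96, 10.88 and 11.02 at 750 ppm, against 10.68, 10.48 and 9.90 in controls, and its differences from control of 0.50 and 0.60 did not pass (limma adjusted p = 0.207 and 0.285). Of 8 hypothalamic neuron genes with a probe set, 4 passed the filter, and 0 of these 4 differed at an unadjusted p under 0.05 in any comparison. The 4 were Hcrt, Avp, Pomc and Nkx2-1. This list covers hypothalamic neurons at large, so it does not measure the histamine neurons among them. Those below the filter were not tested. Among them, Lhx9 had 5.23, 4.90 and 4.81 at 2500 ppm, against 6.07, 5.70 and 5.82 in controls and 6.20, 6.33 and 5.85 at 750 ppm. Oxt went the other way, with 6.40, 6.34 and 6.41 at 2500 ppm against 6.22, 6.09 and 6.26 in controls. Lists of other tissues also moved with Hdc. Over the 9 arrays, which share dose groups, its correlation was 0.68 with the choroid plexus mean and -0.73 with the striatal mean, given as a description. Within the 2500 ppm group, Hdc and the choroid plexus mean had the same order, from 6.28 and 1.48 in replicate 1 to 6.12 and 0.29 in replicate 3. Slc22a3 had the reverse order on these arrays, while its correlation with that mean over the 9 arrays was 0.57. The part of these marker lists in the Hdc values was not tested.

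Hnmt, whose methyltransferase ends histamine signalling in the brain, lies on chromosome 3 from 26978274 to 27010291. On 1387382_at the values were 8.48, 8.65 and 8.32 in controls, 8.69, 8.65 and 8.50 at 750 ppm, and 8.51, 8.36 and 8.25 at 2500 ppm. The means ran from 8.37 (SD 0.13) at 2500 ppm over 8.48 (SD 0.16) in controls to 8.61 (SD 0.097) at 750 ppm, and every pair of groups overlapped. The difference between 2500 ppm and 750 ppm was -0.24 (SE 0.0997, interval -0.46 to -0.013, limma adjusted p = 0.374), and against control it was -0.11 at 2500 ppm and 0.13 at 750 ppm (limma adjusted p = 0.618 and 0.666). The other Hnmt probe set, 1385762_at, was among the dimmest described here, with a mean of 3.88 and differences between -0.022 and 0.021.

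Maob, on chromosome X from 8490405 to 8594065, encodes the mitochondrial enzyme that oxidises the methylated product of Hnmt and other amines. On 1368514_at the values were 9.20, 9.16 and 8.46 in controls, 9.08, 8.96 and 9.03 at 750 ppm, and 9.22, 8.91 and 9.13 at 2500 ppm. Control replicate 3 was the lowest of all 9 arrays, and the other 8 lay between 8.91 and 9.22. The difference was 0.083 at 750 ppm (interval -0.32 to 0.48) and 0.15 at 2500 ppm (interval -0.25 to 0.55) against control, with limma adjusted p of 0.891 and 0.714. Without control replicate 3 the signs turned, to -0.16 at 750 ppm and -0.092 at 2500 ppm, again with no call. On that array the meningeal, endothelial and microglial means were also the lowest of all arrays, at -1.25, -0.53 and -0.48, and their part in the Maob value was not tested.

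**Figure D3:**
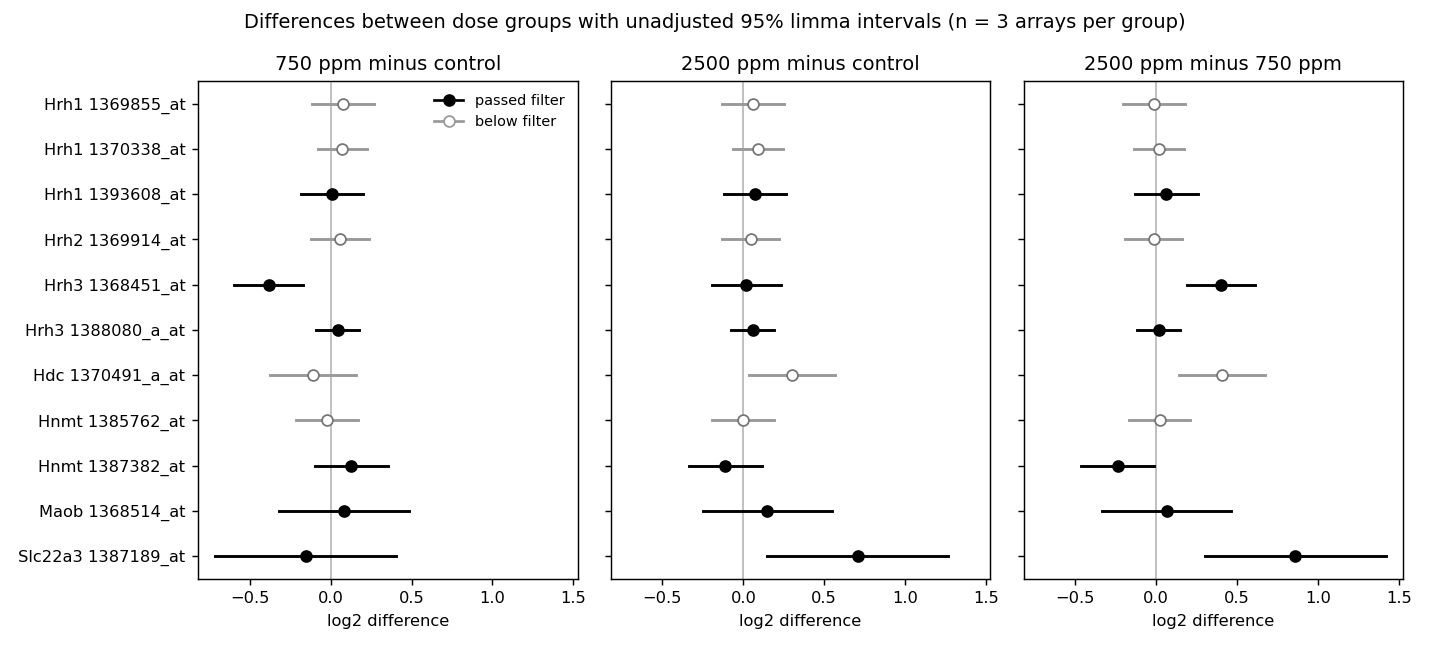
Log2 difference (horizontal axes) of each of the 11 probe sets (rows) in the 3 comparisons, with points for estimates and lines for unadjusted 95% limma intervals (n = 3 arrays per group). Filled points passed the filter and open points did not. The interval of Slc22a3 runs from 0.15 to 1.26 at 2500 ppm against control, and that of Hrh3 on 1368451_at from -0.60 to -0.17 at 750 ppm against control.

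No histamine probe set passed the adjusted threshold in any comparison. Of the 6 that passed the filter, 0 were called at 750 ppm against control, where 0.0092% of all 21729 probe sets were called, 0 at 2500 ppm against control, where 0.686% were called, and 0 at 2500 ppm against 750 ppm, where 0.322% were called. At an unadjusted p under 0.05, 1, 1 and 3 of these 6 differed, against 10.1%, 16% and 12.6% of all probe sets. Without the filter 0 of 11 were called in limma, against 0.00966%, 0.548% and 0.219% of all 31042 probe sets. At an unadjusted p under 0.05, without the filter, 1, 2 and 4 of the 11 differed in these comparisons, against 9.02%, 14.5% and 11.5%.

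Groups did not overlap for 1 of 11 probe sets at 750 ppm against control (lower, Hrh3), against 5.96% of all probe sets in that direction. They did not overlap for 2 at 2500 ppm against control (both higher, Slc22a3 and Hdc), against 9.59%, and for 3 at 2500 ppm against 750 ppm (all higher, Slc22a3, Hdc and Hrh3), against 8.35%. The median difference of the 6 filtered probe sets was 0.024 at 750 ppm and 0.064 at 2500 ppm against control, beside 0.0023 and 0.0070 over all probe sets. The 2 comparisons with control share the control arrays.

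Other genes of histamine and amine handling gave 1 call. Slc47a1, which encodes the exporter MATE1 of organic cations, rose at 2500 ppm, where its mean was 7.21 against 6.22 in controls (difference 0.99, SE 0.13, limma adjusted p = 0.0235). This call was lost without control replicate 2 or 3 and without 2500 ppm replicate 2 or 3, with adjusted p between 0.0595 and 0.0827 and differences between 0.90 and 0.996. The control mean of Slc47a1 lay under the filter value of 6.35, so its probe set passed the filter through the dosed groups. At 750 ppm its mean was 6.83, and the difference of 0.61 from control did not pass (limma adjusted p = 0.201, and 0.0404 with array weights). In the same comparisons 16 of 16 meningeal genes were higher, with a median difference of 0.90 at 2500 ppm and 1.24 at 750 ppm, and their part in the Slc47a1 values was not tested. Of 9 transporter genes with a probe set, 6 passed the filter, and Slc47a1 was the only 1 of these to be called at 2500 ppm. At an unadjusted p under 0.05 there were 3 of the 6 at 750 ppm against control, 1 at 2500 ppm against control and 2 between the doses. The shares of all probe sets were 10.1%, 16% and 12.6%. Those 6 had a median of 0.14 at 2500 ppm against control. The carnitine and cation transporter gene Slc22a5 was at -0.30 at 750 ppm and the serotonin transporter gene Slc6a4 at 0.29 at 2500 ppm against control, with limma adjusted p of 0.231 and 0.412. With array weights Slc22a5 passed, at -0.39 (limma adjusted p = 0.0317).

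Of 7 enzyme genes of amine and aldehyde breakdown with a probe set, 6 passed the filter, and 0 of these were called in limma in any comparison. At an unadjusted p under 0.05 there were 2 of the 6 in each comparison. The share of all probe sets was 10.1% at 750 ppm and 16% at 2500 ppm against control, and 12.6% between the doses. The median of these 6 genes was 0.17 at 2500 ppm and 0.17 at 750 ppm against control. Their mean, as a difference from the 9-array average, was -0.36 in control replicate 3, against -0.019 and -0.0053 in the other controls. The aldehyde dehydrogenase gene Aldh1a1 was at 0.82 at 2500 ppm (limma adjusted p = 0.136), Aldh7a1 at 0.34 at 750 ppm (limma adjusted p = 0.409), and Aldh2 at 0.21 and 0.18 at 2500 and 750 ppm. Without control replicate 3, Aldh1a1 was at 0.58, Aldh7a1 at 0.18, and Aldh2 at 0.14 and 0.11 in these comparisons.

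Of 18 genes for G proteins and effectors of the histamine receptors with a probe set, 16 passed the filter, and 0 of these were called in limma. At an unadjusted p under 0.05 there were 6 at 2500 ppm against control, 3 at 750 ppm against control and 6 at 2500 ppm against 750 ppm. The shares of all probe sets were 16%, 10.1% and 12.6%. At 2500 ppm against control 13 of the 16 genes were lower, with a median of -0.10. Gnal, which encodes a Gs-type protein abundant in the striatum, was at -0.84 (limma adjusted p = 0.0933, and 0.0386 without 750 ppm replicate 3; with array weights -0.99 and 0.00793), on arrays with the striatal values given above, and the phospholipase gene Plcb3 was at 0.28 (limma adjusted p = 0.147). At 750 ppm the adenylyl cyclase gene Adcy8 and the inhibitory G protein gene Gnai1 were at 0.36 and 0.35 (limma adjusted p = 0.377 and 0.448). Adcy8 had the opposite sign at 2500 ppm, where it was at -0.37 against control (limma adjusted p = 0.197), and it was at -0.73 at 2500 ppm against 750 ppm (limma adjusted p = 0.0579). With array weights its difference at 750 ppm was 0.56 and passed (limma adjusted p = 0.0313).

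Of 6 genes for the synthesis of other amines and GABA with a probe set, 5 passed the filter, and 0 of these were called in limma. At an unadjusted p under 0.05 there were 1 at 2500 ppm against control, 0 at 750 ppm against control and 3 between the doses. The shares of all probe sets were 16%, 10.1% and 12.6%. Gad2 and Gad1, which encode the GABA-making enzymes, were at -1.09 and -0.58 at 2500 ppm (limma adjusted p = 0.137 and 0.372), and without 750 ppm replicate 3, an array outside this comparison, both passed (limma adjusted p = 0.0193 and 0.0150). They also passed when only the groups compared were fitted (limma adjusted p = 0.0261 and 0.0225) and with both outlying arrays left out (0.00779 and 0.0266), and Gad2 passed with array weights (0.0226). Striatal projection neurons use GABA, and on these arrays 15 of 15 striatal genes were lower at 2500 ppm than in controls, with a median difference of -1.13. Their part in the Gad2 and Gad1 values was not tested. At 750 ppm the polyamine enzyme gene Odc1 and Gad2 were at -0.083 and -0.26 (limma adjusted p = 0.672 and 0.784).

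Over the 9 arrays, which share dose groups and tissue content, the genes with the pattern most like each member were found by Pearson correlation, as a description. For Slc22a3 they were Nlgn1, Bop1 and Clmp, with correlations of 0.99, 0.98 and 0.98. For Hrh3 on 1368451_at they were Vps37b, Sapcd2 and Sfrp1, at 0.97, 0.95 and 0.94. Hnmt was closest to Ccnt2, Grb14 and Gprasp2 (0.98, 0.97 and 0.96), Maob to Tmem126b, Gnptab and Mocs2 (0.99, 0.97 and 0.97), and Hrh1 to Sult5a1, Slc5a1 and Pop1 (0.96, 0.95 and 0.95). Among the members themselves the strongest correlation was -0.74, between Hrh1 and Hnmt, and that of Slc22a3 with Hrh3 was 0.33. With 21729 probe sets to choose from and 9 arrays, correlations of this size are the top of a long list.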

How the data were processed

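RNA from the cortex of 9 pups was amplified by in vitro transcription from the 3' end, with 1 array per pup, per the labels' protocols. Per the submitters' processing notes, the authors used the affy package and RMA, which corrects background, quantile-normalizes arrays and summarises probes. The deposited values are log2 intensities, and versions are not given in the sources used here. Quantile normalization hides a change in total RNA per cell, and RMA compresses differences near background.

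The 57 control probe sets were set aside, and the filter left 21729 of 31042 probe sets. Group means were estimated from the 9 arrays together with limma 3.58.1 (R 4.3.3, statmod 1.5.0), two-sided, with an adjusted threshold of 0.05 and a 95% interval per difference. It was tested on simulated data. The smallest p of an exact permutation test is 0.1 at this group size, so none was run. Pups stand for separate litters, and p-values measure the spread between such pups. Pathway and marker lists used the brightest probe set per gene. Named were all member probe sets, list genes past the threshold, the 2 with the smallest p per list and comparison with control, and the 3 genes most like each member. Members and lists were chosen with earlier results of these data known. Symbols come from the platform annotation, checked through Entrez identifiers against RefSeq (GRCr8). Positions are those of genes, not probes.

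Same-numbered arrays of different groups deviated together with correlations between -0.21 and 0.31, so the replicate numbers were not taken to pair the pups. The alternatives were other filters, scalings, variance models, thresholds, weights and sets of arrays.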

Additional observations from a re-analysis of the deposited data

How the results depend on the processing

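The number of histamine probe sets called was 0 in all 3 comparisons under both other filters, both scalings, the intensity trend, the fits of only the groups compared and an adjusted threshold of 0.1. With the replicate number as a block it was also 0 in each, and this block changed no call of a histamine gene. At 750 ppm against control it was 1 (Hrh3) with array weights and 1 at an unadjusted p under 0.05. At 2500 ppm against control it was 1 (Slc22a3) at an unadjusted p under 0.05. At 2500 ppm against 750 ppm it was 2 (Hrh3 and Slc22a3) with array weights, 3 at an unadjusted p under 0.05, and 1 (Slc22a3) with control replicate 3 and 750 ppm replicate 3 both left out. Leaving out 1 array gave 0 to 1 there and 0 to 0 in both comparisons with control. Apart from the fit without the filter, these counts cover only the 6 probe sets that passed it in the main fit. Hdc, which lay below it, passed at 2500 ppm against 750 ppm without 750 ppm replicate 3 (limma adjusted p = 0.0387). It also passed there with both arrays left out. The calls over all probe sets moved more. At 750 ppm, 2 calls became 340 with array weights and 0 to 48 without 1 array, at 2500 ppm 149 became 1495 and 9 to 466, and between the doses 70 became 721 and 13 to 731. With the replicate block the 70 became 36. The groups compared alone gave 1, 481 and 14, an adjusted threshold of 0.1 gave 3, 585 and 205, and leaving out both arrays gave 71, 263 and 1149.

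Of 423 member values recomputed, 21 had the opposite sign, none of them past the threshold, and the cause was not tested. At 750 ppm against control these were Hrh1 at -0.0051 with median-centred arrays and -0.058 with array weights, Maob at -0.16 with array weights and -0.16 with both arrays left out, and Hrh3 (1388080_a_at) at -0.0011 with both left out. At 2500 ppm against control, array weights gave Hrh3 (1368451_at) -0.0014 and Maob -0.098, and both arrays left out gave Maob -0.092. Between the doses, a second quantile normalization gave Hrh3 (1388080_a_at) -0.0078. Gad2, which is no member and not among the 21, turned too. At 750 ppm it became 0.20 with array weights, 0.36 with both left out and -0.52 to 0.15 without 1 array. For the members, leaving out 1 array at 750 ppm against control gave Hrh1 -0.096 to 0.062, Hrh3 (1388080_a_at) -0.0011 to 0.087, Maob -0.16 to 0.21, Slc22a3 -0.41 to 0.0087 and Hdc -0.23 to 0.041. At 2500 ppm against control it gave Hrh1 -0.032 to 0.13, Hrh3 (1368451_at) -0.055 to 0.075 and Maob -0.092 to 0.28, and between the doses Maob -0.0021 to 0.15. Of the dim probe sets, only Hdc was refitted under these alternatives.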

Other observations

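Several of the probe sets described carry the same deposited value, to the last digit, on more than 1 array. The value was shared by 5 arrays for Hrh3 on 1388080_a_at, by 4 for Hrh2, by 3 for Hrh1 on 1393608_at and on 1369855_at, and by 2 for Slc22a3, while the other 6 histamine probe sets had 9 different values. Over the whole table, 30.6% of the probe sets kept by the filter and 58.4% of those left out had a value shared by at least 2 arrays, and 1.84% and 8.44% had one shared by at least 4. Identical values give a group an SD of 0, as for 1388080_a_at at 750 ppm, so its spread is understated by the plain SD.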
